A study of Mus musculus with 4 samples.

Results

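Ribosome-protected fragments (RPF, called footprints here) that lay in the 3'UTR, the part of an mRNA after the stop codon, were compared between mouse heart and tibialis anterior (TA), a fast hindlimb muscle. The genes described were those listed for both tissues with a 3'UTR of at least 30 nt that had, in heart or in TA, at least 5 RPM of footprints on the coding sequence and at least 0.2 RPM on the 3'UTR in that same tissue. RPM are reads scaled to the coding reads of a library and are not divided by length. These minimums were met by 3968 of the 9906 genes listed for both tissues. In heart 3698 of them met both minimums and in TA 1889, with 1619 in both, 2079 in heart alone and 270 in TA alone. All tissue came from 10-week-old male C57BL/6J mice with no stated treatment or genetic change, and each tissue gave 1 footprint library and 1 library of total RNA depleted of ribosomal RNA. The frozen tissue was lysed in cycloheximide, a drug that holds ribosomes on the mRNA. The sources used here do not say how many animals a library holds. With 1 library per tissue and kind no difference has a replicate check and none is tested. All intervals printed are 95% counting intervals from approximate read numbers and do not cover differences between animals or preparations.

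A ribosome normally releases its protein at the stop codon and is then taken off the mRNA, so few footprints are found in 3'UTRs. Footprints there can come from readthrough, in which a tRNA is accepted at the stop codon and the protein gains an extension, from a frame translated downstream of the stop, from ribosomes not removed after termination, or from RNA fragments that no ribosome protected. They are also counted there when another isoform of the gene uses the same bases as coding sequence. The deposited values sum all such reads over the whole 3'UTR of 1 transcript model per gene. They do not give the reading frame or the position of a read, so these sources cannot be told apart here.

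The stop codon and the bases after it are known to set how often readthrough occurs, and the sequence TGACTA, a stop codon followed by CTA, is a known readthrough context in mammals. The windows below are shown for 4 genes with reported readthrough that are among the 3968. Capitals mark the stop codon and the 3 bases after it, and 12 nt stand on either side. Mdh1 holds the CTA context and Ldhb, Vegfa and Acp2 do not.
Mdh1: ctctcctctgcgTGACTAgacactcgtttt
Ldhb: ctcaaagacctgTGACTGccagtctctagg
Vegfa: aagccaaggcggTGAGCCaggctgcaggaa
Acp2: gaagaccatgctTGACAAccactcagtccc
A second set of windows is shown because they hold the same 6 letters and are 4 of the genes with this context whose 3'UTR to coding ratio was above that of Mdh1 in both tissues.
Gcap14: cgaggcccacagTGACTAcacagttcaagg
Cramp1l: gacctctctcagTGACTAtgctttgtgaca
Ptprg: gagtctctggtgTGACTAgtcccctggaag
Aph1a: tcgtgtaaggacTGACTAcctggactgatc
The last set belongs to genes whose 3'UTR was among those with most footprints or differed most between tissues. None of them has the CTA context at the listed stop codon. In Gpn3 the next stop in the same frame, after 1 sense codon, is followed by CTA.
Gpn3: cggcagaatgagTGAGGTtgactacgtagg
Tufm: ggacttgaagctTAGTCTaatcttgcggca
Deb1: aaggcagtggagTAGTTTtccagaaggctg
Myl2: gaagagaaggacTGAGCCctgaaccacagc
The windows are in sense orientation and come from GENCODE transcripts (mouse build GRCm38) matched by RefSeq accession and coding length. That build is not the authors' mm9, so no genome coordinates are given.

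Of the 3968 genes, 3903 could be matched in this way. Their stop codon was TGA in 49.7%, TAA in 25.8% and TAG in 24.5%, against 51.1%, 27.0% and 21.9% of 4153 matched genes that met the coding and length minimums but not the 3'UTR minimum. TGACTA at the stop, searched on the sense strand, was found in 15 genes (0.384%), against 10 (0.241%) of the others. Among the same genes the median number of sense codons from the stop to the next stop in the same frame was 19, against 18. The 3'UTR footprint genes had 3'UTRs with a median of 1652 nt, against 572 nt in all 4217 genes below the 3'UTR minimum, a difference that the minimum on summed reads itself favours. A further property was reuse of the 3'UTR as coding sequence: 271 genes (6.94%), against 115 (2.77%), shared at least 1 run of 26 nt with the coding sequence of another annotated isoform of the same gene. The median ratio of these 271 genes was 3.10% in heart and 1.91% in TA, and that of the 3632 without such a run was 1.63% in heart and 0.817% in TA. Sequence shared with other genes was more common: 889 genes (22.8%), against 445 (10.7%), held a run found in another gene's coding sequence, and 800 (20.5%), against 374 (9.01%), one found in a small RNA. The 1007 genes with either kind had median ratios of 2.68% in heart and 1.36% in TA, and the 2896 with neither 1.45% and 0.742%. Genes with shared sequence had the higher medians in both tissues and also the longer 3'UTRs, and the part of reads from elsewhere was not tested.

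Footprints in the 3'UTR were a small fraction of those on the coding sequence in both tissues, while RNA reads covered both parts at similar density. The median 3'UTR to coding ratio in footprints was 1.71% in heart (quartiles 0.625 and 4.06%) and 0.880% in TA (quartiles 0.265 and 2.59%). The same ratio in RNA had a median of 77.0% in heart and 83.7% in TA. Divided by the length of each part, the footprint ratio had a median of 1.50% in heart and 0.769% in TA, and the RNA ratio one of 77.2% and 82.4%. The ratio was above 100% at a coding value of at least 5 RPM in 15 genes in heart and in 7 in TA. Summed over the 3968 genes the 3'UTRs held 4094 RPM of footprints in heart and 2170 RPM in TA, or 0.594% and 0.327% of their coding sums. Depth was near equal, since 1 RPM was about 28 reads in heart and 29 in TA. The median 3'UTR held about 13 reads in heart and 6 in TA, and 24 genes were at 0 in heart and 260 in TA. Over the whole libraries the footprints on 5'UTRs were also more in heart (28036 RPM) than in TA (13616 RPM), whose part in the 3'UTR difference was not tested.

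**Figure D1:**
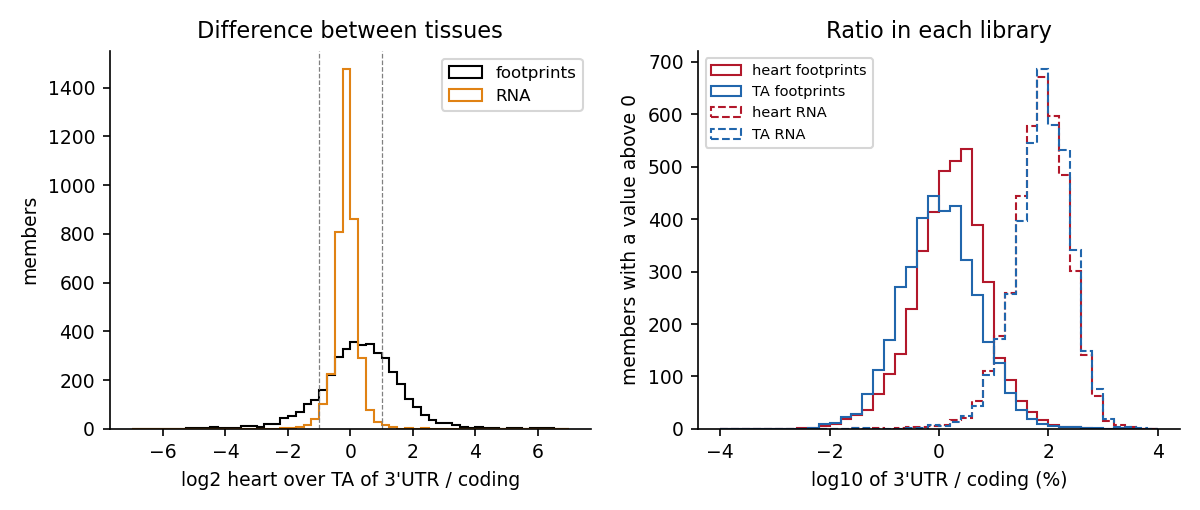
Left, histogram of the log2 heart over TA difference of the 3'UTR to coding ratio over the 3968 genes, in footprints (0.1 RPM added to 3'UTR values) and in RNA; dashed lines mark 2-fold. Right, histogram of the log10 ratio in percent in each library, for genes above 0. Heart footprints (median 1.71%) lie to the right of TA footprints (0.880%), while heart RNA (77.0%) and TA RNA (83.7%) overlap and the RNA difference is narrow.

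The ratio was more often higher in heart. With nothing added, it was higher in heart in 2837 genes and lower in 1131. Of all 8185 genes that met the coding and length minimums, 4669 were higher in heart and 2542 lower by this count. The median ratio of the 8185 was 0.594% in heart and 0.348% in TA. With 0.1 RPM added to the 3'UTR values, 1125 of the 3968 genes were higher in heart by 2-fold or more and 481 were lower by as much. Without a minimum on 3'UTR footprints the shares were 18.5% higher and 19% lower, or 37.5% in either direction, over all 8185 genes that met the coding and length minimums. Over 6673 of these with the coding minimum met in both tissues they were 19.7% higher and 15% lower, or 34.7% in all. The median log2 difference was 0.37, against -0.07 over the 8185. The counts among the 3968 genes cannot be read as a property of them, because the 0.2 RPM minimum chose genes on the same 3'UTR values and more genes passed it through heart. Among the 1619 genes that met both minimums in each tissue, 399 were higher and 188 lower, with a median log2 of 0.27. The interval of the ratio of ratios lay above 1 for 907 of the 1125 and below 1 for 251 of the 481. These intervals use the same reads that made the calls, so they are no separate support for them. The matching share over the 8185 genes was not taken. The added 0.1 RPM matters for genes with few reads: with 0.5 RPM added, there were 497 higher against 702 lower calls and the median log2 was -0.12, and with 0.01 RPM added 1658 were higher and 431 lower. Of the 1125 genes called higher, 140 were at 0 in TA, and of the 481 called lower, 12 were at 0 in heart, while 9 and 19 were at 0 in the tissue whose ratio was called the greater, a call that only the added 0.1 RPM gives.

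RNA did not differ in the same way. In the RNA ratio 5.27% of the 8185 genes were past 2-fold, 1.26% higher and 4.01% lower in heart, and its median log2 over the 3968 genes was -0.11. The difference in footprints and that in RNA had a Spearman rho of 0.04 across the 3968 genes. With the RNA difference subtracted, 1435 of the 1606 genes past 2-fold in footprints were still past it in the same direction. The 1606 were chosen on footprints, and the RNA ratio was past 2-fold in 28 (higher) and 69 (lower) of the 3968. Few calls were therefore likely to change. By the subtracted measure 39.7% of the 8185 genes were past 2-fold, 23.1% higher and 16.6% lower, which is not a share of calls kept. Across genes the ratio ranked alike in the tissues, with a Spearman rho of 0.69 between heart and TA over the 3968 genes and 0.83 over the 1619. These are descriptions across genes, which share libraries and are not replicates. Of the tenth with the highest ratio among the 1619, 161 genes in each tissue, 92 (57.1%) were in both lists.

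**Figure D2:**
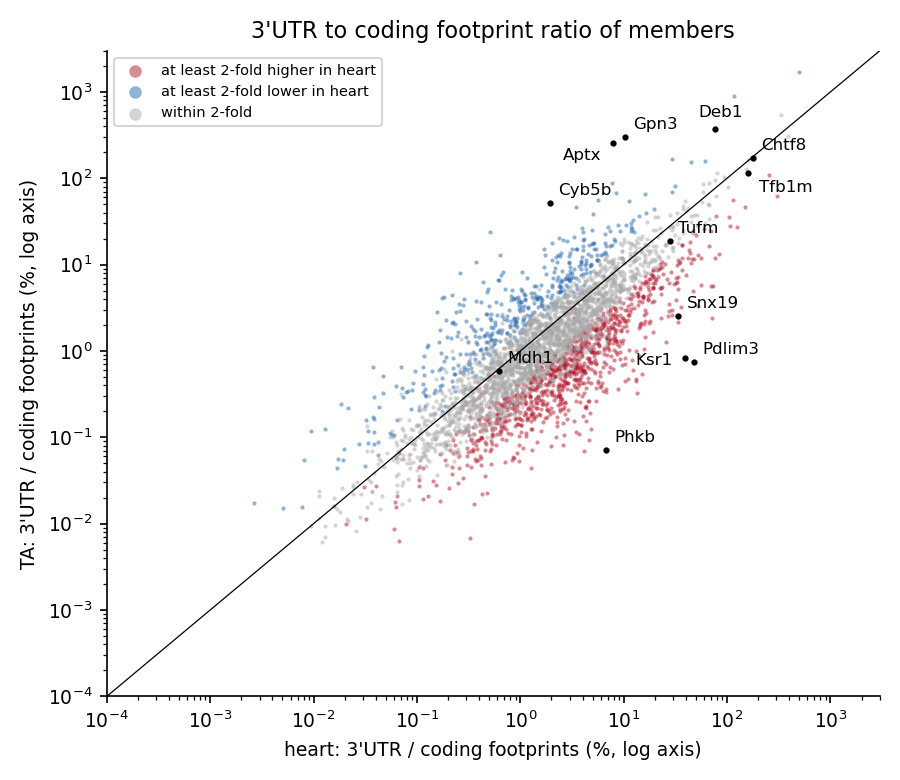
Each point is a gene of the 3968 with 3'UTR footprints above 0 in both tissues; the x axis is its 3'UTR to coding footprint ratio in heart and the y axis that in TA, both in percent on log axes, with the line of equal ratios. Colours mark genes past 2-fold with 0.1 RPM added. Phkb, Pdlim3, Ksr1 and Snx19 lie far to the heart side (Phkb 6.76% in heart, 0.0704% in TA), Gpn3, Aptx and Cyb5b far to the TA side (Gpn3 10.3% and 301%), and Mdh1, Chtf8 and Tufm near the line.

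The difference in ratio ran against the difference in coding footprints. The log2 difference of the ratio and that of the coding value had a Spearman rho of -0.61 across the 3968 genes, a relation that shares the coding value on both sides. Of 351 genes with coding footprints at least 4-fold higher in heart, 194 had a ratio at least 2-fold lower and 4 a ratio at least 2-fold higher. Of 111 genes with coding footprints at least 4-fold lower in heart, 100 had a ratio at least 2-fold higher and 0 a ratio 2-fold lower. Many of these 3'UTRs hold few reads, so the added 0.1 RPM bears on the counts: the 351 genes had a median of 0.60 RPM on the 3'UTR in heart and 0.10 RPM in TA, with 46 at 0 in TA, and the 111 had 0.25 RPM in heart and 0.49 RPM in TA, with 11 at 0 in heart. Among genes with both minimums met in both tissues, which leaves out 3'UTRs near 0, 42 of 76 with coding footprints at least 4-fold higher in heart had a ratio at least 2-fold lower and 0 one 2-fold higher, and 34 of 41 with coding footprints at least 4-fold lower had a ratio at least 2-fold higher and 0 one 2-fold lower. With nothing added, the median log2 difference of the 76 genes was 2.53 on the coding sequence and 1.84 on the 3'UTR, and that of the 41 was -2.85 and -0.44. A minimum in both tissues itself leaves out genes whose 3'UTR values differ most. The groups of 351, 111, 76 and 41 genes were cut on the coding value, by which the ratio is divided. Matching shares over all genes without a 3'UTR minimum were not taken for them, so these counts cannot be read as a property of the 3968 genes. Of 2417 genes whose coding footprints were within 2-fold, 871 had a ratio at least 2-fold higher and 133 at least 2-fold lower in heart, where 20.8% and 6.98% of all 5171 genes with coding footprints within 2-fold did without a 3'UTR minimum. The 2417 had medians of 1.81% in heart and 0.773% in TA. In these 2417 the 3'UTR level alone was at least 2-fold higher in heart in 1182 genes and lower in 89, where 29% and 2.67% of the 5171 were. As above, the 3'UTR minimum chose the 2417 on the same values and mostly through heart.

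**Figure D3:**
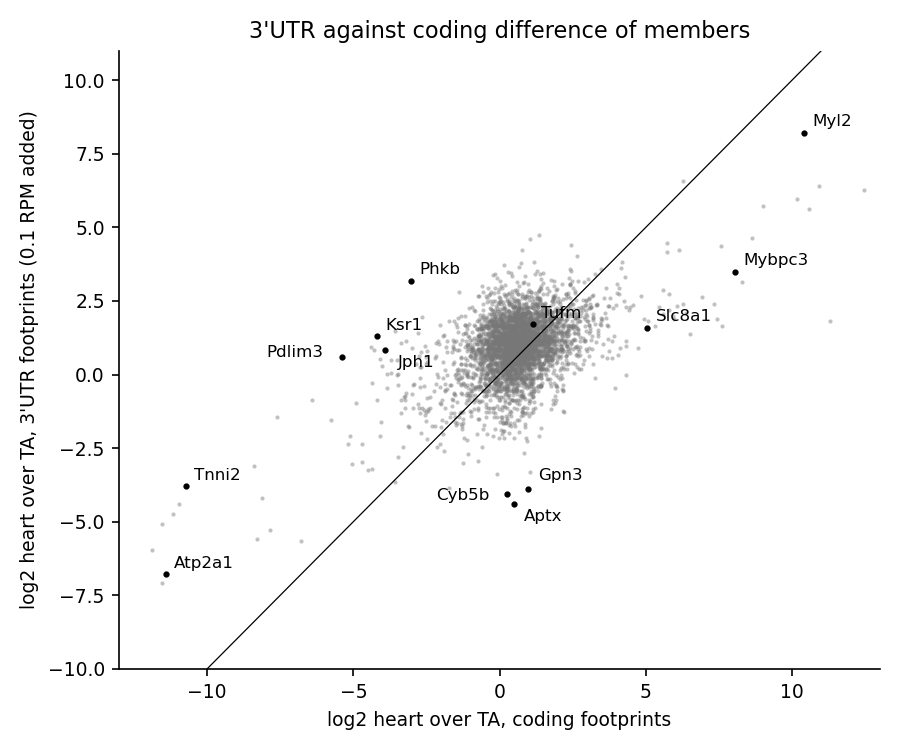
Each point is 1 of the 3968 genes; the x axis is the log2 heart over TA difference of coding footprints, and the y axis that of 3'UTR footprints with 0.1 RPM added, with the line of equal differences. Most genes lie near 0 in coding footprints and above 0 in 3'UTR footprints. The y positions of Tnni2, Atp2a1, Myl2 and Mybpc3, at 0 to about 3 reads in 1 tissue, are set largely by the added 0.1 RPM. Gpn3, Aptx and Cyb5b stand apart below.

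Several genes with high ratios in heart encode proteins of skeletal muscle whose coding footprints were low in heart. Pdlim3, a PDZ and LIM protein of the Z-disc, had 2.48 RPM of 3'UTR footprints in heart and 1.61 RPM in TA, but 5.17 RPM on the coding sequence in heart and 218 RPM in TA. Its ratio was 48.0% in heart and 0.738% in TA, 65.1-fold higher in heart (interval 44.2 to 96.6). Jph1, junctophilin of the skeletal triad, had 1.63 and 0.87 RPM on the 3'UTR in heart and TA, and a ratio of 15.1% in heart and 0.539% in TA. For both genes the 3'UTR levels of the tissues were far closer to each other than the coding levels. The ratio of Camk2b, a calcium and calmodulin dependent kinase, was 12.3% in heart and 0.606% in TA (20.4-fold, interval 11.7 to 37.0). Ksr1, a scaffold of the Ras to MAP kinase pathway, had 2.05 RPM on the 3'UTR in heart and 0.77 RPM in TA, and a ratio of 39.3% in heart and 0.818% in TA (48.3-fold, interval 29.1 to 82.9). Ano10, a membrane scramblase family member, had 4.85% in heart and, from about 1 read, 0.124% in TA, but its RNA ratio was also 198% in heart and 20.6% in TA, and 118 runs of its 3'UTR are coding in another isoform. In the other genes of this paragraph RNA does not show such a gap: the log2 difference of the RNA ratio was -0.45 for Pdlim3, 0.01 for Jph1, 0.20 for Camk2b and -0.20 for Ksr1.

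Other genes had more 3'UTR footprints in heart outright. Phkb, the beta subunit of the kinase that activates glycogen phosphorylase, had 3.65 RPM on the 3'UTR in heart and 0.31 RPM in TA, although its coding footprints were 54.0 RPM in heart and 440 RPM in TA. Its ratio was 6.76% in heart and 0.0704% in TA, 94.5-fold higher in heart (interval 47.9 to 213), which was the highest ratio of ratios among genes with reads in both 3'UTRs and at least 1 RPM in one of them. The 3'UTR and the coding sequence of Phkb thus differed between tissues in opposite directions. Snx19, a sorting nexin of endosomal membranes, had near equal coding footprints, 36.3 RPM in heart and 33.0 RPM in TA, and 12.3 RPM on the 3'UTR in heart against 0.84 RPM in TA. Its ratio was 33.8% in heart and 2.54% in TA (13.3-fold, interval 8.79 to 21.1). Zrsr2, a splicing factor of the minor spliceosome, was alike, with 4.25 RPM on the 3'UTR in heart and 0.35 RPM in TA at coding values of 5.81 and 6.16 RPM. Snx19 and Zrsr2 were chosen after their values were seen, as examples of genes with equal coding values.

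Genes lower in heart included some whose TA 3'UTR held more footprints than the coding sequence. Gpn3, a GTPase needed to bring RNA polymerase II into the nucleus, had 4.57 RPM on the 3'UTR in heart and 68.73 RPM in TA, the most of any 3'UTR in TA among the 3968 genes. Its coding footprints were 44.3 RPM in heart and 22.8 RPM in TA, so that the ratio was 10.3% in heart and 301% in TA, or 29.2-fold higher in TA (interval 24.4 to 35.2). Aptx, aprataxin, which repairs DNA strand breaks, had 0.89 RPM on the 3'UTR in heart and 20.85 RPM in TA, with a ratio of 7.83% in heart and 255.8% in TA. For both genes the TA 3'UTR values stand far outside the heart ones while the coding values are within 2-fold. Cyb5b, the cytochrome b5 of the outer mitochondrial membrane, had 0.28 RPM in heart and 6.26 RPM in TA on the 3'UTR, a ratio of 1.93% in heart and 51.7% in TA. Ctss, the lysosomal protease cathepsin S, had 0.07 RPM in heart, which is about 2 reads, and 1.57 RPM in TA. Runs of 26 nt shared with other genes' coding sequence numbered 0 in Gpn3, 20 in Aptx and 2 in Cyb5b, those shared with small RNAs 0, 22 and 4, and none was shared with another isoform's coding sequence. The RNA ratio differed by log2 -0.34, -0.23 and -0.18.

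**Figure D4:**
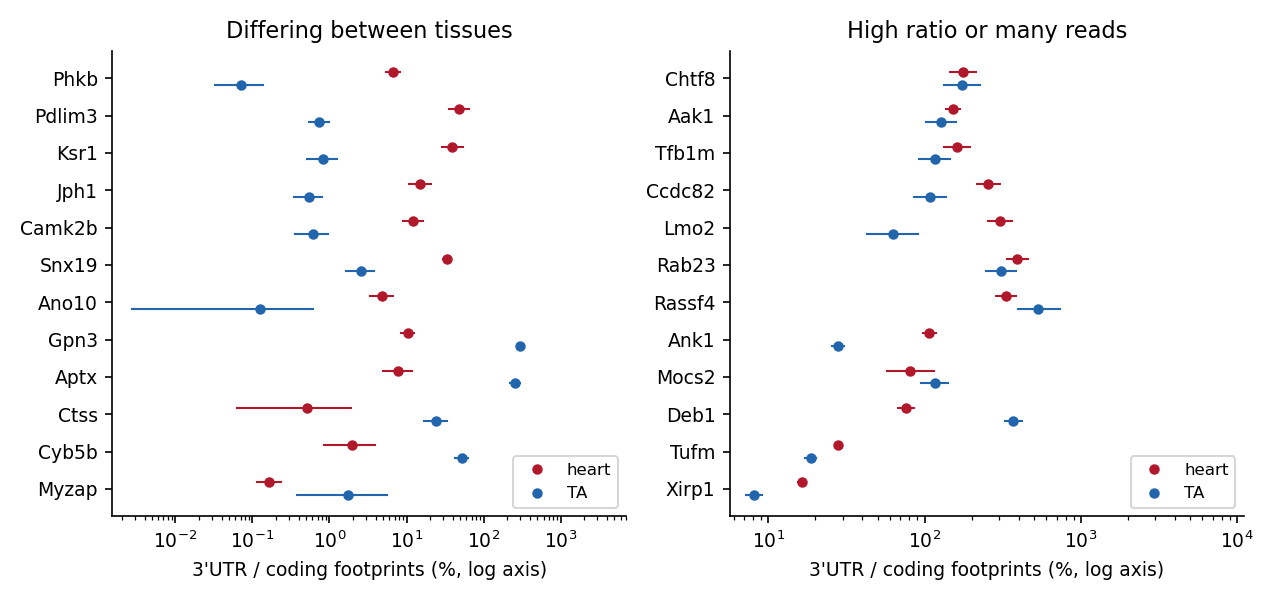
Points are 3'UTR to coding footprint ratios in percent on a log axis, heart above TA for each gene, with 95% counting intervals as lines. On the left the intervals of heart and TA do not overlap for Phkb, Pdlim3, Ksr1, Jph1, Camk2b, Snx19 and Ano10 (heart higher; in Ano10 the RNA ratio differs too) or for Gpn3, Aptx, Ctss, Cyb5b and Myzap (heart lower); on the right Chtf8, Aak1, Mocs2 and Rab23 overlap between tissues.

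The ratio exceeded 100% in genes of diverse function. In heart the highest were 1810012P15Rik, with 35.71 RPM of 3'UTR footprints and 7.19 RPM of coding footprints (497%), Rab23, a small GTPase that restrains Hedgehog signalling, with 28.41 and 7.26 RPM (391%), and Rassf4, a Ras association domain protein, with 26.14 and 7.90 RPM (331%). In TA the ratio of Rab23 was 308%, that of Rassf4 535% and that of 1810012P15Rik 1709%. All 3 were below the coding minimum of 5 RPM there, 1810012P15Rik at 1.50 RPM. These 3 genes were thus high in both tissues, with TA ratios that rest on few coding reads. Lmo2, a transcriptional cofactor of blood and endothelial cells, differed: it had 302% in heart and 62.6% in TA (4.81-fold, interval 3.59 to 6.59). Klhdc5, a kelch domain protein, had 159% in heart and 161% in TA, near equal values. In TA the coding footprints of Lmo2 and Klhdc5 were also below 5 RPM. Hras1, the Ras GTPase, had 76.3% in heart and 96.2% in TA, and 60 runs of its 3'UTR are coding in another isoform. Tfb1m, which methylates the mitochondrial ribosomal RNA, had 161% in heart and 116% in TA, and Ccdc82 had 255.9% in heart and 108% in TA. Deb1, which the files describe as an SS18-like protein, had 16.15 RPM on the 3'UTR in heart and 40.33 RPM in TA, with a ratio of 76.1% in heart and 368% in TA. Cybb, the catalytic subunit of the phagocyte NADPH oxidase, had 17.50 RPM on the 3'UTR in heart and 39.21 RPM in TA against 14.88 and 4.41 RPM of coding footprints. The summed coding footprints of 15 macrophage and leukocyte markers were 490 RPM in heart, where 13 were listed, and 193 RPM in TA, where 11 were listed. In bulk tissue, fewer cells of a type and less RNA per cell cannot be told apart.

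By summed reads, the 3'UTRs with most footprints in heart were those of Tufm (83.60 RPM), Myl2 (59.48 RPM), Srp54a (56.86 RPM), Xirp1 (43.32 RPM) and Idh3b (43.04 RPM). Tufm, the mitochondrial elongation factor Tu, had 25.39 RPM on the 3'UTR in TA and a ratio of 28.0% in heart and 18.7% in TA. Of the 26-nt runs in its 3'UTR, 114 occur in the coding sequence of another isoform. Srp54a, a subunit of the signal recognition particle, had 52.12 RPM in TA, and its ratio was 48.0% in heart and 37.4% in TA, with 23 runs shared with small RNAs. Xirp1, a Xin repeat protein that binds actin at the intercalated disc and at sites of muscle damage, had 10.21 RPM in TA, with a ratio of 16.3% in heart and 8.10% in TA (2.02-fold, interval 1.77 to 2.30). The longest frame from an ATG in the Xirp1 3'UTR had 496 codons, and 20 runs of this 3'UTR are coding in another isoform. Idh3b, a subunit of the mitochondrial isocitrate dehydrogenase, had 13.99 RPM in TA and a ratio of 7.69% in heart and 3.94% in TA. Eif4a2, an RNA helicase of translation initiation, was among the 5 highest in TA with 32.18 RPM, against 22.71 RPM in heart, and 125 runs of its 3'UTR are coding in another isoform.

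Some 3'UTRs hold a known or long reading frame. The longest frame from an ATG in the 3'UTR had a median of 67 codons over the 3903 matched genes. It was at least 200 codons in 23 genes, whose median ratio was 2.33% in heart and 1.89% in TA, against 0.989% in heart and 0.520% in TA in the 1097 genes with less than 50 codons. The 737 genes with 100 to 200 codons had 2.33% in heart and 1.22% in TA, the same heart median as for the longest frames. Divided by length the medians were 1.92% and 1.46% for the 23 genes, 1.70% and 0.927% for the 737 and 1.41% and 0.720% for the 1097. Of the 23 genes 7 shared runs with their own coding sequence, and of the 1097 genes 69. Longer 3'UTRs hold both more reads and longer frames by their size alone. Chtf8, a factor of sister chromatid cohesion whose mRNA is known to carry a second coding sequence after the first, had the longest frame, 502 codons, and 1573 runs of its 3'UTR are annotated as coding in another gene. It had 11.30 RPM on the 3'UTR in heart and 5.60 RPM in TA, and a ratio of 176% in heart and 172% in TA, which did not differ within the counting interval (1.02-fold, 0.845 to 1.25). Mocs2, whose mRNA encodes both subunits of molybdopterin synthase in overlapping frames, was listed for its first subunit. Its 3'UTR held 2.23 RPM in heart and 7.76 RPM in TA, and the ratio was 80.8% in heart and 116% in TA (0.695-fold, interval 0.517 to 0.923). The listed 3'UTR of Mocs2 shared 465 runs with its other coding sequence. The coding footprints of Mocs2 in heart and of Chtf8 in TA (3.25 RPM) were below 5 RPM. Rpp14, a subunit of ribonuclease P whose mRNA is known to encode a mitochondrial dehydratase in its 3'UTR, had 4.53 RPM on the 3'UTR in heart and 4.30 RPM in TA, with ratios of 78.9% and 62.4%. Chtf8, Mocs2 and Rpp14 all had ratios far above the median in both tissues, and Rpp14 was chosen after its values were seen. Aak1, a kinase of clathrin-coated vesicles with a 3'UTR of 15929 nt, had 31.00 RPM in heart and 6.65 RPM in TA and ratios of 151% and 128%.

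Of genes with readthrough reported in mammals, 8 of a list assembled for this comparison were listed for both tissues and 6 met the minimums. None of the 6 was past 2-fold higher in heart, 1 was lower, and the median log2 was 0.22. Mdh1, cytosolic malate dehydrogenase, whose readthrough product carries a peroxisomal targeting signal, had 16.65 RPM on the 3'UTR in heart and 5.56 RPM in TA. Its ratio was 0.622% in heart and 0.588% in TA, a fold of 1.06 (0.882 to 1.27), so that the 3'UTR and coding footprints differed between the tissues by about the same factor. Both ratios were below the median of the 3968 genes. Ldhb, the lactate dehydrogenase B subunit, whose extended form is also peroxisomal, had 2.20 RPM in heart and 0.24 RPM in TA, with ratios of 0.0601% and 0.106%. The interval of its ratio of ratios ran from 0.254 to 1.44 and so covers equality. Vegfa, a growth factor of blood vessels, had 7.26 RPM in heart and 1.75 RPM in TA, a ratio of 8.63% in heart and 5.15% in TA, and was the sole gene of the 6 whose interval excluded equality (1.68-fold, 1.23 to 2.34). Aqp4, a water channel whose extended form sits near blood vessels in brain, had 0.74 RPM in heart and 1.92 RPM in TA, with 7.57% and 7.94%. Acp2, lysosomal acid phosphatase, had 2.84% in heart and 2.01% in TA (1.41-fold, 0.723 to 2.89), and Eif2c1, the older symbol of the argonaute gene Ago1, had 8.89% in heart and, from about 1 read, 1.73% in TA.

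Over the 15 genes with TGACTA at the stop, the ratio had a median of 2.27% in heart and 1.53% in TA. At least 2-fold, 6 were higher in heart and 1 lower, and 2 were at 0 in TA. The shares to be read beside these counts were 28.4% and 12.1% of the 3968 genes, and 18.5% and 19% of the 8185. Gcap14 had 4.25 RPM on the 3'UTR in heart and 1.33 RPM in TA and a ratio of 23.7% in heart and 9.43% in TA, and 675 runs of its 3'UTR are coding in another isoform. Cramp1l had 2.37 and 0.56 RPM in heart and TA, with 14.3% and 5.54%, and its 3'UTR holds no run of its own gene's coding sequence but 30 runs of other genes' coding sequence and 28 of annotated small RNAs. Ptprg, a receptor tyrosine phosphatase, had 2.90 RPM in heart and 0.52 RPM in TA, with 4.37% and 1.53% (2.84-fold, interval 1.63 to 5.30). Aph1a, a subunit of gamma-secretase, went the other way, with 6.62% in heart and 11.6% in TA, and the longest in-frame extension of the genes printed above at 53 codons. In Aph1a 40 runs of the 3'UTR are coding in another isoform. Plin5, a lipid droplet protein of oxidative tissue, had 0.0961% in heart and 0.589% in TA from about 6 and 4 reads. The spread of ratios among genes with the same 6 letters was therefore wide in both tissues.

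**Figure D5:**
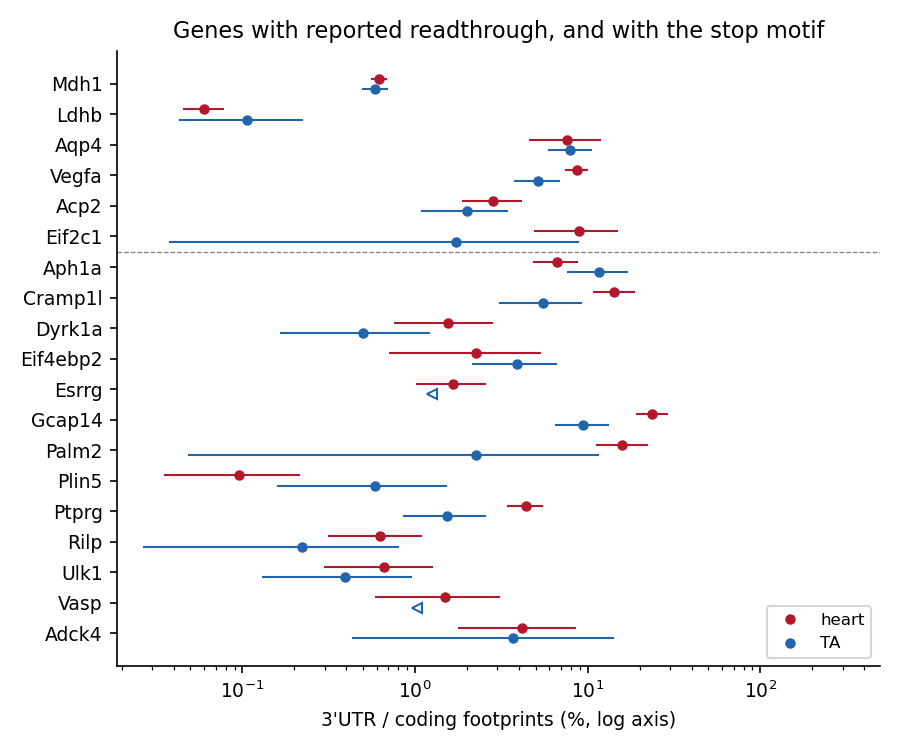
Points are 3'UTR to coding footprint ratios in percent on a log axis, heart above TA for each gene, with 95% counting intervals; open triangles are the ratio that 3 reads would give in a 3'UTR at 0. Genes above the dashed line have reported readthrough and those below, with Mdh1 and Aqp4 above it, have TGACTA at the stop. Mdh1 has near equal values (0.622% in heart, 0.588% in TA), Vegfa is higher in heart (8.63% and 5.15%), and Gcap14, Cramp1l and Ptprg have heart intervals that lie above the TA ones.

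Selenoprotein mRNAs carry in their 3'UTR an element that recodes a TGA within the coding sequence as selenocysteine. Of 14 listed for both tissues 6 met the minimums, and all 6 met both minimums in both tissues. At least 2-fold, 3 were higher and 1 lower in heart (28.4% and 12.1% of the 3968 genes, 18.5% and 19% of the 8185). Sepp1, the selenium carrier of plasma, had 3.68 RPM on the 3'UTR in heart and 0.87 RPM in TA and a ratio of 8.51% in heart and 2.88% in TA (2.95-fold, interval 1.89 to 4.76). Sepw1, a small muscle selenoprotein, had 0.46 RPM in heart and 1.12 RPM in TA but 17.3 RPM in heart and 163 RPM in TA on the coding sequence, so its ratio was 2.66% in heart and 0.686% in TA. Sepx1, a methionine sulfoxide reductase, had 1.06% in heart and 0.744% in TA, an interval that covers equality (0.717 to 2.86).

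The gene lists below are described by counts. Their genes passed the 3'UTR minimum, as did the 3968, of which 28.4% were higher and 12.1% lower. The shares of 18.5% higher and 19% lower given above are those without that minimum. Contractile genes gave the extreme log2 values, and most of these rest on few reads. All 7 cardiac contractile genes were called lower in heart (median log2 -4.22), but 4 of them were at 0 on the 3'UTR in TA and none met both minimums in both tissues. Tnni3, cardiac troponin I, had 7.55 RPM on the 3'UTR in heart (0.0795% of coding) and 0 RPM in TA. At its 1.68 RPM of coding footprints in TA, 3 reads would give a ratio of 6.25%. Mybpc3, a thick filament protein of heart, had 1.03 RPM there (0.0227%) and 0 RPM in TA, where 3 reads would give 0.620%. Tnnt2, cardiac troponin T, had 6.09 RPM in heart (0.0480%) and 0 RPM in TA, where 3 reads would give 0.955%. Actc1, cardiac actin, had ratios of 0.0157% in heart and 0.0159% in TA, which are near equal although the added 0.1 RPM makes it a call at log2 -1.27. Myl2, the ventricular regulatory light chain, had 59.48 RPM in heart and 0.10 RPM, about 3 reads, in TA, with ratios of 0.588% and 1.34% and an interval from 0.143 to 2.03 that covers equality. Of 8 fast skeletal contractile genes 7 were called higher in heart and 6 were at 0 on the 3'UTR in heart. Tnni2, fast troponin I, had 0 RPM in heart, where 3 reads would give 1.09%, and 1.29 RPM in TA (0.00785%). Tnnt3, fast troponin T, had 0 RPM in heart, where 3 reads would give 1.68%, and 13.50 RPM in TA (0.0707%). Tnnc1, cardiac troponin C, had about 1 read in TA and an interval from 0.0174 to 4.25, and Myzap, a protein of the intercalated disc, had ratios of 0.166% in heart and 1.76% in TA from about 32 and 3 reads. For the 10 genes at 0 the direction is set by the added 0.1 RPM and is not a measured difference. Tpm1, alpha-tropomyosin, is the member with many reads in both: it had 1.31 RPM in heart and 5.35 RPM in TA, with 0.00268% and 0.0175% (6.52-fold higher in TA, interval 4.53 to 9.60), and 63 runs of its 3'UTR are coding in another isoform.

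Of 17 calcium handling genes 6 were at least 2-fold higher and 7 lower in heart. Atp2a1, the calcium pump of fast fibres, had 0.11 RPM, about 3 reads, in heart and 23.05 RPM in TA, with ratios of 0.460% and 0.0355% (12.5-fold, interval 2.58 to 36.8). Pln, phospholamban, which restrains the cardiac pump, had 20.02 RPM in heart and 0.14 RPM, about 4 reads, in TA, with 0.257% and 3.48% (13.5-fold higher in TA, interval 3.68 to 34.9). Slc8a1, the sodium and calcium exchanger, had 1.77 RPM in heart and 0.52 RPM in TA, with 0.218% and 2.12% (9.79-fold higher in TA, interval 5.11 to 17.7). Pvalb, parvalbumin, a calcium buffer of fast fibres, had 0.07 RPM, about 2 reads, in heart and 10.56 RPM in TA, with 2.63% and 0.105%. In each of these genes the tissue with the lower coding value had the higher ratio, which rests on 2 to 4 reads in all but Slc8a1. Casq1, calsequestrin of fast fibres, was chosen after its values were seen. It had 0 RPM on the 3'UTR in heart, where 3 reads would give 0.517%, and 3.81 RPM in TA (0.0800%). Its call as higher in heart thus rests on the added 0.1 RPM. Summed coding footprints of the 7 cardiomyocyte markers were 142221 RPM in heart and 466 RPM in TA, where 3 of the 7 were not listed, and those of the 7 fast fibre markers were 46.6 RPM in heart, where 2 were not listed, and 260015 RPM in TA. The labelled tissues thus carried their defining markers.

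Among 20 Z-disc and M-band genes 6 were higher and 5 lower (median log2 0.38), and among 12 of them with both minimums met in both tissues 4 were higher and 1 lower. Fhl2, a cardiac LIM protein, had 4.85 RPM in heart (0.221%) and 0 RPM in TA, where 3 reads would give 7.32%. Of 9 genes known to use alternative 3' ends in muscle, 4 were higher and 1 lower, with Pdlim3 and Tpm1, described above, at the ends. Ttn, titin, had 4.71 RPM on the 3'UTR in heart and 5.88 RPM in TA and a ratio of 0.0210% in heart and 0.0113% in TA (1.87-fold, interval 1.48 to 2.36), which was not past 2-fold. Of 8 giant protein genes 1 was higher and none lower. Utrn, utrophin, was that gene, with 0.50 RPM in heart and about 1 read in TA. Ank2, ankyrin-B, had 13.85 RPM in heart and 3.08 RPM in TA, with ratios of 6.74% and 6.42% whose fold of 1.05 covered equality (0.833 to 1.34). Muscle regulators had 4 of 7 higher and none lower. Six4, a homeobox factor of fast muscle, had 1.45 RPM in heart and 0.38 RPM in TA, with 33.6% and 2.16% (15.4-fold, interval 7.76 to 33.2). The coding footprints of Six4 in heart were below 5 RPM. Fbxo32, the ubiquitin ligase atrogin-1, had 1.67% in heart and 0.596% in TA.

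The ratio fell with the coding level across the 3968 genes (Spearman rho -0.77 in heart and -0.60 in TA, with the coding value on both sides). Of 18 glycolysis and glycogen genes 7 were higher and 2 lower in heart (median log2 0.72), with median ratios of 0.070% in heart and 0.068% in TA, against 1.71% and 0.880% over the 3968 genes. Gapdh had 10.06 RPM on the 3'UTR in heart and 10.00 RPM in TA although its coding footprints were 4248 RPM in heart and 9127 RPM in TA, so the ratio was 0.237% in heart and 0.110% in TA (2.16-fold, interval 1.83 to 2.56). Of 19 fatty acid genes 1 was higher and 5 lower (median log2 -0.67). Lpl, lipoprotein lipase, had 26.43 RPM in heart and 3.08 RPM in TA and ratios of 0.244% and 0.455% (0.537-fold, interval 0.430 to 0.678). Slc25a20, the carnitine carrier of mitochondria, was the higher one, with 0.85 RPM in heart and about 2 reads in TA. The coding footprints of the fatty acid genes were higher in heart by a median log2 of 2.16, and those of the glycolysis genes lower by -1.60. Of 62 oxidative phosphorylation genes 6 were higher and 14 lower (median log2 -0.01). Uqcrq, a subunit of complex III, had 21.96 RPM in heart and 14.94 RPM in TA (7.54% and 6.06%), and Ndufb10, a subunit of complex I with a short 3'UTR, had 0.0466% in heart and 0.330% in TA (7.08-fold higher in TA, interval 3.72 to 13.8). Atp5h, a subunit of ATP synthase, had 3.19 RPM in heart and 0.21 RPM in TA, with 0.114% and 0.0194% (interval of the fold 2.60 to 16.5). Of 16 tricarboxylic acid cycle genes 2 were higher and 1 lower, and of 9 energy buffering genes 2 were higher and none lower. Suclg1, a subunit of succinyl-CoA ligase, was the lower one of the cycle, with about 1 read in heart and 0.31 RPM in TA, and Idh3a, a subunit of isocitrate dehydrogenase, had 0.105% in heart and 0.0318% in TA. Ckm, muscle creatine kinase, had 3.22 RPM in heart and 18.01 RPM in TA, with 0.116% and 0.0660%.

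Among 16 translation factors 4 were higher and 1 lower in heart (median log2 0.60). Eif1, a factor of start codon selection, was the lower gene, with 7.76 RPM on the 3'UTR in heart and 22.94 RPM in TA and a ratio of 2.34% in heart and 7.26% in TA (3.11-fold higher in TA, interval 2.66 to 3.64). Pabpc1, the poly(A) binding protein, had 1.31 RPM in heart and about 1 read in TA. Of 69 ribosomal protein genes 18 met the minimums, with 4 higher and 5 lower. Rps3 had 4.99 RPM in heart and 0.63 RPM in TA, with 3.51% and 0.649%, and 50 runs of its 3'UTR are coding in another isoform. Rpl41, with the highest log2 among them, had 2.59 RPM in heart and 0.56 RPM in TA, with 1.60% and 0.215% (interval of the fold 4.29 to 13.7). Of 13 heat shock and chaperone genes 2 were higher and 2 lower, of 9 immediate early genes 1 and 1, of 5 genes with regulatory upstream frames 0 and 0, and of 5 histone genes 1 and 0. Hspe1, the mitochondrial co-chaperonin, had 1.15% in heart and 0.158% in TA, the second value from about 2 reads. Oaz2, an antizyme that restrains polyamine synthesis and is made by frameshifting, had about 26 reads in heart and 29 in TA, with 0.521% and 0.982% (interval of the fold 0.299 to 0.930). Jun, a transcription factor of the AP-1 family, had 7.26 RPM in heart and 2.13 RPM in TA, with 13.7% and 3.39% (4.03-fold, interval 3.01 to 5.45).

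Of markers of other cell types, no adipocyte or atrial one was listed for both tissues, so none could be among the 3968 genes. The 1 satellite cell marker listed for both was not among them. Of 14 endothelial, 11 fibroblast and 8 smooth muscle and pericyte markers listed for both, 8, 5 and 4 were among them. This is to be read beside 3968 of the 8185 genes that met the coding and length minimums. Of 8 endothelial markers 2 were higher and none lower: Kdr, a receptor of vascular endothelial growth factor, had 2.80 RPM on the 3'UTR in heart and 0.28 RPM in TA (1.04% and 0.319%, 3.26-fold, interval 1.58 to 7.82), and Flt1, a related receptor, had 0.81 RPM in heart and about 2 reads in TA. Of 4 smooth muscle and pericyte markers 3 were higher and none lower. With 0.1 RPM added, none of 5 fibroblast markers passed 2-fold, nor did the single macrophage marker Mrc1 or the single erythroid marker Hbb-b1. Col1a2, a collagen, had 0.0331% in heart, from about 2 reads, and 0.135% in TA. Its log2 of -0.95 was -1.86 with 0.01 RPM added and 0.18 with 0.5 RPM, so its call depends on the added value. Mrc1 had 0.525% in heart and 0.132% in TA, with 0.04 RPM on the 3'UTR in TA. Of 2 nerve and Schwann cell markers 1 was higher. The summed coding footprints were 1830 RPM in heart and 855 RPM in TA for endothelial markers, 5486 and 5010 RPM for fibroblast markers, 945 and 724 RPM for smooth muscle and pericyte markers and 16966 and 874 RPM for erythroid markers. The part of cell composition in the differences of the ratio was not tested.

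Genes close to the minimums had these values. In heart, 1110054O05Rik and Ccdc85b stood just inside at 5.03 RPM of coding footprints and Qpctl and Tctn3 just outside at 4.99 RPM; in TA, 2310011J03Rik and Ccdc82 stood at 5.00 RPM and Tcf7l2, which met the minimums in heart, and Tfcp2l1 at 4.97 RPM. On the 3'UTR the lowest values inside were 0.21 RPM in each tissue, and the highest outside were 0.18 RPM in heart and 0.17 RPM in TA. The shortest 3'UTRs inside, those of Galntl2 and Plcb4, had 34 nt, and the longest outside, that of Prdx5, had 27 nt.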

How the data were processed

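Footprints (RPF) and total RNA of mouse heart and TA, 4 libraries, were used as deposited. Per the labels, fragments of 26 to 36 nt were isolated after RNase I digestion and mapped to RefSeq transcripts; the submitters' processing notes name Bowtie and mm9. The authors deposited RPM, per the file headers, with 1 model per gene and a value each for coding sequence, 5'UTR and 3'UTR. How reads with several matches were treated is not given here.

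For each gene the 3'UTR RPM was divided by the coding RPM, and tissues were compared as log2 of the heart over TA ratio with 0.1 RPM added to 3'UTR values, not centred. With 1 library per group no test was possible. A gene is called at 2-fold or more. Low values are whole multiples of a step (100% within 0.005 RPM, where 28.8% in heart and 29.2% in TA would be by even spread), which gave approximate reads: 1 RPM is about 28 in heart RPF, 29 in TA RPF, 9 in heart RNA and 16 in TA RNA. Rounding makes these reads approximate. Intervals are Clopper-Pearson at 95%. For the ratio of ratios coding reads were taken as fixed, so intervals are too narrow where coding reads are few, and all cover counting error only. A 3'UTR at 0 is given with the ratio 3 reads would have.

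The genes, lists and alternatives were chosen with earlier results of these data known. Named genes are the 8 highest and 8 lowest log2 among genes with at least 5 RPM of coding footprints in both tissues and 1 RPM on a 3'UTR, the 8 highest ratios and the 5 highest 3'UTR values in each tissue, the readthrough genes, the 3 selenoproteins with most 3'UTR footprints, and for each list of 5 or more its highest, lowest and most abundant. Any other gene given, among them those with TGACTA, was chosen after values were seen. Transcripts of GENCODE M21 (GRCm38) gave the sequences. The listed coding length was 6 nt shorter than theirs in 8056 of 8132 genes found by accession, and these 8056 were used. A symbol on several rows (5 in heart, 4 in TA) was represented by the row with most coding reads, footprints and RNA added. The scripts ran in Python 3.11.15 and the packages matplotlib 3.10.9, scipy 1.17.1, pandas 2.3.3 and numpy 2.4.6.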

Additional observations from a re-analysis of the deposited data

Results flagged for a closer look

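Genes listed for 1 tissue only were outside the comparison. Among those with a 3'UTR of at least 30 nt, 96 of 865 listed for heart alone and 40 of 429 listed for TA alone met both minimums; the genes below had the most 3'UTR footprints and did not meet the coding one. Zbtb7c, a zinc finger factor listed for heart alone, had 51.58 RPM of 3'UTR footprints against 1.81 RPM of coding footprints, where 3 reads are 0.106 RPM. Cidec, a lipid droplet protein of fat cells that is listed for TA alone, had 9.09 RPM on the 3'UTR and 3.46 RPM on the coding sequence, where 3 reads are 0.105 RPM. Of the adipocyte markers 0 of 6 were listed in heart and 4 in TA, with 88.6 RPM of coding footprints. The 3'UTR RNA was 3.42 RPM for Zbtb7c in heart and 2.3 RPM for Cidec in TA, less than the footprints of the same 3'UTRs. Zbtb7c and Cidec stand out as high values that the comparison of tissues does not use. The source of these footprints was not tested.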

How the results depend on the processing

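No paired analysis was possible because each tissue has 1 library of each kind. The number of genes at least 2-fold higher in heart, 1125, was 497 with 0.5 RPM added, 340 at a 3'UTR minimum of 1 RPM, 1729 with no minimums and, chosen after seeing the data, 399 with both minimums in both tissues. The number lower, 481, was 112 at 1 RPM, 1487 with no minimums and 188 with both minimums in both tissues. The median log2, 0.37, was 0.73 with 0.01 RPM added and -0.12 with 0.5 RPM, 0.46 with the coding minimum in both tissues, 0.60 at 1 RPM, 0.053 with no minimums, 0.43 after centring, 0.48 minus RNA and 0.27 with both minimums in both tissues. The median ratio in heart, 1.71%, was 1.32% with the coding minimum in both tissues, 4.40% at 1 RPM, 1.05% with no minimums and 1.96% with both minimums in both tissues. That in TA, 0.880%, was 0.686%, 2.26%, 0.595% and 1.46% under the same 4 settings. With 0.5 RPM added, Slc25a20 turned from log2 1.10 to -0.14, and Utrn, higher in heart, to -0.011. The sign of called genes changed in 45 of 1606 with 0.5 RPM added and in 15 with 0.01 RPM. The cause of the other shifts was not tested. About 6 reads in the median TA 3'UTR limit single genes.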

Other observations

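Below the coding minimum stood 602 genes with at least 0.2 RPM of 3'UTR footprints and less than 5 RPM of coding footprints in both tissues. Grk4, a kinase of G protein-coupled receptors, had 102.13 RPM on the 3'UTR in heart and 12.35 RPM in TA, with coding footprints of 0.43 RPM in heart and 0.35 RPM in TA. Its 3'UTR RNA was 87.76 RPM in heart and 45.27 RPM in TA. Zfp334, a zinc finger protein, had 83.60 RPM of 3'UTR footprints in heart and 1.85 RPM in TA, where the 3'UTR RNA was 8.67 RPM and 6.02 RPM. The 3'UTR footprints of both genes were thus higher in heart by a larger factor than the 3'UTR RNA, the more so in Zfp334.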
